A study of Drosophila melanogaster and Drosophila simulans and Drosophila yakuba with 30 samples.

Results

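The regions described here are stretches of the D. melanogaster genome where Dichaete binding was called in D. melanogaster and in D. yakuba but not in D. simulans, although D. simulans is the closer relative of D. melanogaster. The Dichaete binding intervals of the 3 species, all in D. melanogaster coordinates (UCSC build dm3), were merged wherever they shared at least 1 bp, which gave 29282 regions. Of these, 3273 regions (11.2%) were overlapped by the D. melanogaster and the D. yakuba list and by no D. simulans interval, and they covered 5.07 Mb. The regions were chosen by presence in the first pair of lists and absence from the third, so neither is a finding about them.

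Binding was mapped by DamID-seq, in which a protein fused to the E. coli Dam methylase marks GATC sites near the places it visits, and methylated fragments are sequenced. Whole embryos of 0 to 16 h were used from D. melanogaster strain w[1118], D. simulans w[501], D. yakuba Cam-115 and the D. pseudoobscura reference strain. Each carried a piggyBac transgene, pBac3xP3-EGFP-Dichaete-Dam or, as the control, pBac3xP3-EGFP-Dam, and in D. melanogaster and D. simulans also pBac3xP3-EGFP-SoxN-Dam, with 3 biological replicates for each of 10 combinations and 30 libraries in all. The fusion proteins had D. melanogaster Sox sequence in every species and stood behind UAS sites and an Hsp70 promoter. The signal therefore comes from a transgene rather than from the endogenous protein. In which cells of the embryo the transgene was expressed was not measured here. A binding interval is a run of GATC fragments with more reads in the fusion than in the Dam-only libraries at an adjusted p-value under 0.05. The deposited lists combine all replicates of a condition, so no value below has a spread between replicates, and the number of reads behind an interval cannot be read from them.

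Dichaete and SoxN (SoxNeuro) are group B Sox proteins, transcription factors that bind DNA through an HMG domain and bend it. Both are expressed in the neuroectoderm and in neural stem cells of the fly embryo, where they act in early development of the central nervous system and can partly stand in for each other. Dichaete also acts in segmentation, the hindgut and the brain.

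The 3273 regions were of intermediate length. Their median length was 1210 bp, with quartiles of 738 and 1973 bp and a range from 5 to 35479 bp. The 7482 regions with intervals of all 3 species had a median of 2376 bp, the 1327 regions absent only in D. yakuba 755 bp and the 1443 regions absent only in D. melanogaster 886 bp. Regions called in a single species were the shortest, with medians of 396 bp in D. melanogaster, 369 bp in D. simulans and 626 bp in D. yakuba. Length and class depend on each other by construction, since a long region has more room for a further interval and every added interval lengthens the merged region.

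**Figure D1:**
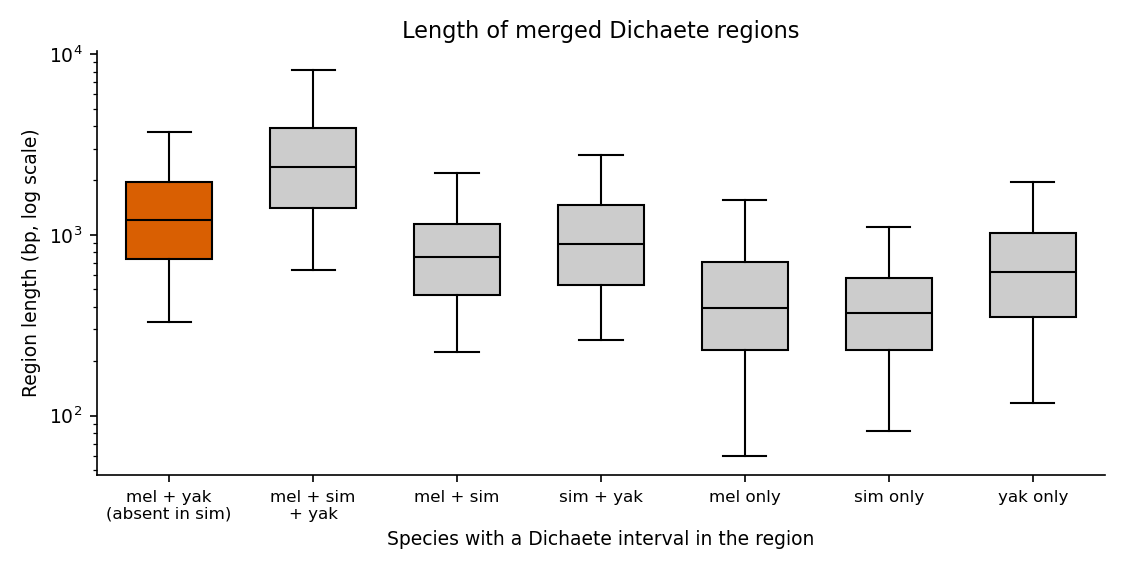
Length in bp (log scale) of merged Dichaete regions by the species that had an interval in them; boxes span the quartiles, the line is the median and whiskers reach the 5th and 95th percentiles. The regions absent only in D. simulans (orange, median 1210 bp) lie between the regions of all 3 species (2376 bp) and the regions of a single species.

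Most of these regions were simple. In 2969 of 3273 (90.7%) there was 1 D. melanogaster and 1 D. yakuba interval. The boundaries of the pair were the same in 444 of these, the D. melanogaster interval lay inside the D. yakuba interval in 1245, the reverse held in 764, and the intervals were staggered in 516. D. yakuba intervals were thus more often the wider of the pair, and the D. yakuba list as a whole had longer intervals (median 944 bp against 671 bp in D. melanogaster). The stretch that both lists held had a median of 469 bp, with quartiles of 287 and 768 bp, which was a median of 43.7% of the region. In 172 regions (5.26%) it was under 100 bp, either because the calls met at an edge or because an interval was itself that short, down to 5 bp.

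The intervals behind these regions were shorter and built from fewer GATC fragments than those of regions called in all 3 species. The 3526 D. melanogaster intervals in them, 16.9% of that list, had a median length of 619 bp and a median of 3 merged fragments, against 1012 bp and 4 fragments in the three-species regions. The 3392 D. yakuba intervals, 16.2% of that list, had a median of 915 bp and 3 fragments, against 1598 bp and 6 fragments. A single fragment made up 27.3% of the D. melanogaster and 18.8% of the D. yakuba intervals, compared with 14.5% and 8.53% in three-species regions and with 27.2% and 26.5% in the whole lists. At the stricter threshold of 0.01, an interval of the D. melanogaster list was still present in 2547 of the 3273 regions (77.8%), in 92.9% of the three-species regions and in 57.3% of the regions found in D. melanogaster alone. These values come from the same contrasts as the rule that chose the regions and are given as a description only.

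Absence in D. simulans was the most frequent of the patterns in which 1 of the 3 species was missing, and the D. simulans list was also the smallest. It held 16119 intervals over 13.3 Mb, compared with 20848 intervals over 21.9 Mb in D. melanogaster and 20964 over 30.9 Mb in D. yakuba, and 34.4% of its intervals were single fragments. Among all merged regions, 56.2% had no D. simulans interval. Of the 10755 regions with D. melanogaster and D. yakuba intervals, 30.4% lacked one in D. simulans (Wilson 95% interval 29.6 to 31.3%). Such intervals cover counting error only and treat regions as independent, which neighbouring regions are not. The part of list size in the number of these regions was not tested.

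The share without D. simulans fell with region length. It was 69.1% (65.2 to 72.6%) of the regions under 500 bp, 51.5% (49.1 to 53.9%) from 500 up to 1000 bp, 36.3% from 1000 up to 2000 bp, 20.5% from 2000 up to 4000 bp and 6.55% (5.53 to 7.75%) of those of 4000 bp or more. Only 126 of the 3273 regions (3.85%) were 4000 bp or longer. Shares are given by length class below for chromosome 4, SoxN of both species and D. pseudoobscura. Comparisons between classes are over all lengths where no length class is named.

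Across the large chromosome arms the share without D. simulans was nearly even. It was 31.7% on 2L (643 of 2027 regions), 27.9% on 2R (537 of 1928), 30.8% on 3L (672 of 2182), 29.3% on 3R (737 of 2517) and 31.2% on X (601 of 1925). The small chromosome 4, which is largely heterochromatic in character, stood apart at 47.2% (83 of 176, interval 39.9 to 54.5%). Its regions were not short: the 83 had a median length of 2013 bp. From 1000 up to 2000 bp, 80.6% of the chromosome 4 regions (29 of 36) lacked D. simulans against 35.8% on the other arms, from 2000 up to 4000 bp 45.3% against 20.0%, and from 4000 bp 23.1% (15 of 65) against 5.97%. The higher share on chromosome 4 was thus present within each of these length classes.

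The D. simulans Dichaete list held 153 intervals on chromosome 4 in D. melanogaster coordinates and 165 in its own genome, with a further 27 on unplaced sequence of that chromosome. The corresponding SoxN numbers were 221, 204 and 29. Intervals on chromosome 4 were thus present in D. simulans before and after translation, and the translated SoxN list held more of them than the Dichaete list. These totals do not show where on the chromosome the intervals lay. The first translated D. simulans Dichaete interval was 4:151950-152397, and none lay between it and the left end of the chromosome. D. simulans SoxN was called in that stretch, for example at 4:64711-65561. How much of the higher share on chromosome 4 came from that stretch was not tested.

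A higher share was also found beside several centromeres. In the 2 Mb next to the centromere of the 5 large arms, 45.1% of the D. melanogaster and D. yakuba regions (271 of 601, 41.2 to 49.1%) lacked D. simulans, compared with 29.3% (2919 of 9978, 28.4 to 30.2%) on the rest of these arms. The share beside the centromere was 71.6% on 3L (58 of 81), 55.2% on 2L (80 of 145), 48.2% on 2R (41 of 85) and 40.2% on X (35 of 87). It was 28.1% on 3R (57 of 203), which was no higher than the 29.4% on the rest of that arm. The 271 regions absent only in D. simulans beside the centromeres were longer than the 2919 others on these arms (median 1475 against 1164 bp), lay farther from D. simulans Dichaete (median 4232 against 2145 bp) and had D. melanogaster SoxN as often (90.8 against 88.2%). In the 119 megabases with at least 30 such regions, the share had a median of 29.5% and ranged from 17.7 to 86.7%, and the highest value came from a megabase near the centromere end of 3L (26 of 30 regions). This split was chosen after the positions had been seen. Whether sequence near centromeres and on chromosome 4 was translated to D. melanogaster coordinates less completely from D. simulans than from D. yakuba was not tested.

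**Figure D2:**
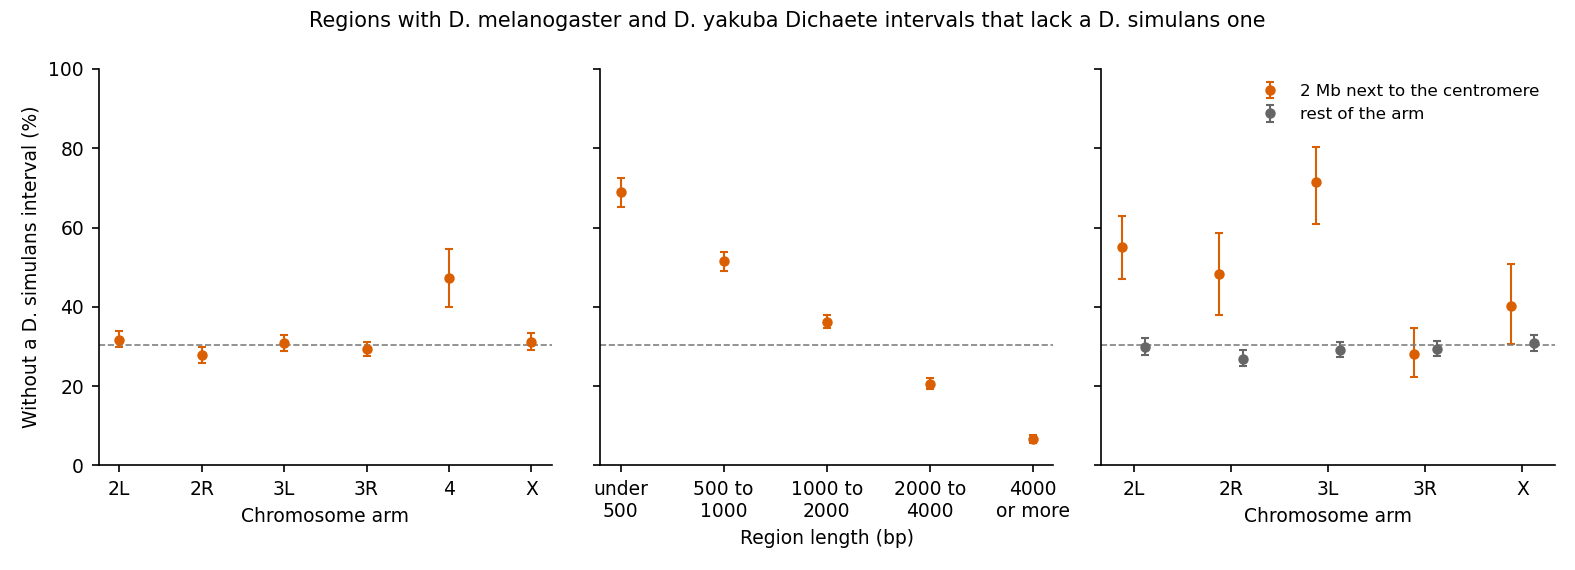
Percentage of the 10755 regions with D. melanogaster and D. yakuba Dichaete intervals that lacked a D. simulans one, by chromosome arm (left), region length in bp (middle) and proximity to the centromere (right); bars are Wilson 95% intervals and the dashed line is the overall 30.4%. Chromosome 4 (47.2%), regions under 500 bp (69.1%) and the centromere side of 3L (71.6%) lie highest, and regions of 4000 bp or more (6.55%) lowest.

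The missing D. simulans call was seldom right beside the region. The distance to the nearest D. simulans Dichaete interval had a median of 2256 bp, quartiles of 990 and 4956 bp and a maximum of 127266 bp. In 216 regions (6.60%) a D. simulans interval touched the region end to end without overlapping it, in 828 (25.3%) one lay within 1000 bp, and in 2925 (89.4%) one lay within 10000 bp. In 119 regions (3.64%) the nearest lay more than 20000 bp away. The nearest D. simulans interval belonged to a region of all 3 species for 1858 of the 3273 regions (56.8%) and to a region called in D. simulans alone for 719 (22.0%), classes that held 66.3% and 16.0% of all D. simulans intervals.

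The mirror classes lay closer to the species they lacked. Regions absent only in D. melanogaster had a median distance of 1570 bp to the nearest D. melanogaster interval, with 35.1% within 1000 bp, and regions absent only in D. yakuba had a median of 1077 bp to the nearest D. yakuba interval, with 47.2% within 1000 bp. Touching intervals were found for 11.0% and 20.6% of them, and distances over 20000 bp for 0.554% and 0.904%. Within each of the length classes the order of the medians was the same for the regions absent only in D. simulans, which lay farthest in all 5. From 1000 up to 2000 bp, for example, the medians were 2164 bp, 1442 bp and 1055 bp. The D. simulans list has fewer intervals and covers less sequence than either other list, and larger distances to it cannot be told apart from that.

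**Figure D3:**
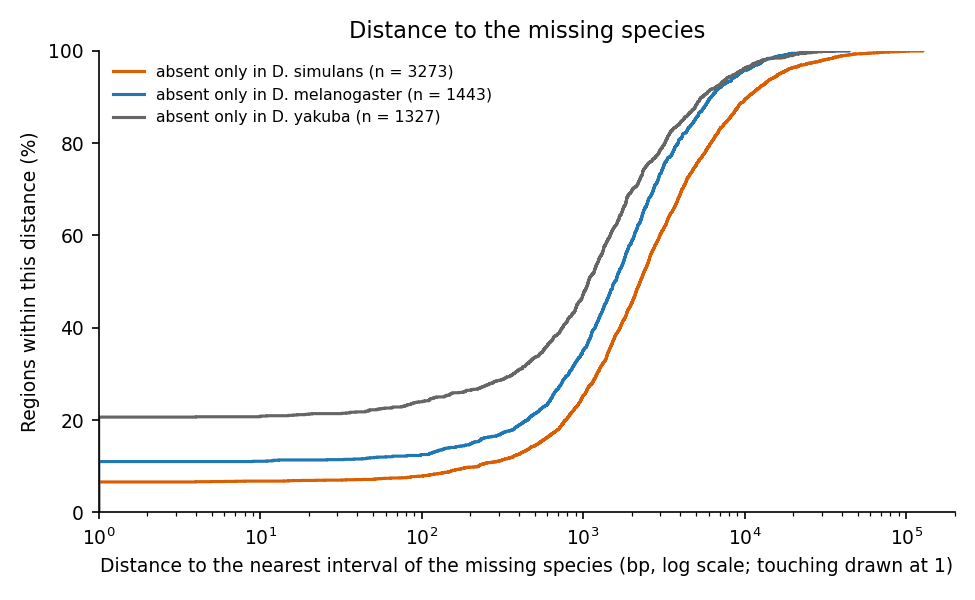
Cumulative percentage of regions by the distance in bp (log scale) to the nearest Dichaete interval of the species they lack, for the 3 classes that lack 1 species; touching intervals are drawn at 1 bp. The curve of the regions absent only in D. simulans lies below the others, with a median of 2256 bp against 1570 bp (absent only in D. melanogaster) and 1077 bp (absent only in D. yakuba).

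A few of the regions lay in long stretches with no D. simulans interval of either factor. There were 152 such stretches of at least 50000 bp, 10.8 Mb in all, and 67 of them held 115 of the regions (3.51%). The share of all merged regions in these stretches was not counted, so 3.51% cannot be called high or low. The largest group was on chromosome 4, at 4:96361-151949, where 55589 bp without a D. simulans interval held 11 of the regions, among 16 D. melanogaster and 17 D. yakuba Dichaete intervals and 19 D. melanogaster SoxN intervals. The absence of D. simulans SoxN around these 115 regions follows from how the stretches were defined.

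Read in order along the chromosomes among all merged regions, 2466 of the 3273 (75.3%) had no neighbour of the same class, and 18 runs held 4 or more in a row. The class made up 11.2% of all merged regions, so most of its regions would lack such a neighbour in any case. Runs were not counted for the other classes, and the values are a description only. The longest run had 7 and lay within the chromosome 4 stretch, at 4:116692-135367. By the definition of that stretch, all 7 had no D. simulans SoxN interval. A D. melanogaster SoxN interval was present in 6 and a D. pseudoobscura interval in 1. The next runs were on X. A run of 6 at X:16019902-16041224 had D. melanogaster SoxN in all 6 and D. simulans SoxN in 3, and a run of 5 at X:8540757-8562187 had intervals of both SoxN lists in all 5. The run at X:8540757-8562187 therefore had translated D. simulans reads in each of its regions, while the run on chromosome 4 had no D. simulans interval of either factor.

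SoxN was called in most of the regions in D. melanogaster. An interval of that list overlapped 2898 of the 3273 regions (88.5%, 87.4 to 89.6%), where 58.8% of all merged regions and 85.8% of the 17930 regions with a D. melanogaster Dichaete interval did so. The share was 95.2% in three-species regions, 83.1% in regions absent only in D. yakuba and 72.9% in regions of D. melanogaster alone, while it was 33.5% in regions absent only in D. melanogaster. The share in the regions absent only in D. simulans was thus close to that of all regions bound by Dichaete in D. melanogaster. The D. melanogaster Dichaete and SoxN lists share their Dam-only libraries, as do those of D. simulans, so the lists of 1 species are not independent of each other.

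D. simulans SoxN was called in a minority of these regions, yet in a larger share than in other regions without D. simulans Dichaete. An interval overlapped 1290 of the 3273 (39.4%, 37.8 to 41.1%), which is the level of all 29282 merged regions (39.2%) and so no property of these regions by itself. Among the 16451 merged regions with no D. simulans Dichaete interval it was 16.5%, and in those called in D. melanogaster alone or in D. yakuba alone it was 13.6% and 8.61%. In three-species regions it was 84.9%, in regions absent only in D. yakuba 65.1%, in regions absent only in D. melanogaster 44.6% and in regions of D. simulans alone, which were the shortest, 35.0% (33.2 to 36.8%). The regions absent only in D. simulans thus stood below the 3 classes that D. simulans shared with another species, and above the regions called in D. melanogaster or D. yakuba alone.

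In each of the 5 length classes the share lay between those of the three-species regions and of the other regions without D. simulans Dichaete. Under 500 bp, D. simulans SoxN was found in 31.1% of the regions absent only in D. simulans (129 of 415), in 68.8% of the three-species regions and in 9.75% of the other regions without D. simulans Dichaete. From 1000 up to 2000 bp the shares were 41.8% (493 of 1179), 80.1% and 12.4%, and from 4000 bp they were 50.8% (64 of 126), 96.5% and 7.84% (4 of 51). By arm, the share in the regions absent only in D. simulans ran from 37.3% on X to 41.2% on 3R on the large arms and was 32.5% on chromosome 4 (27 of 83). Beside the centromeres it was 27.7%, against 40.7% on the rest of the large arms.

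**Figure D4:**
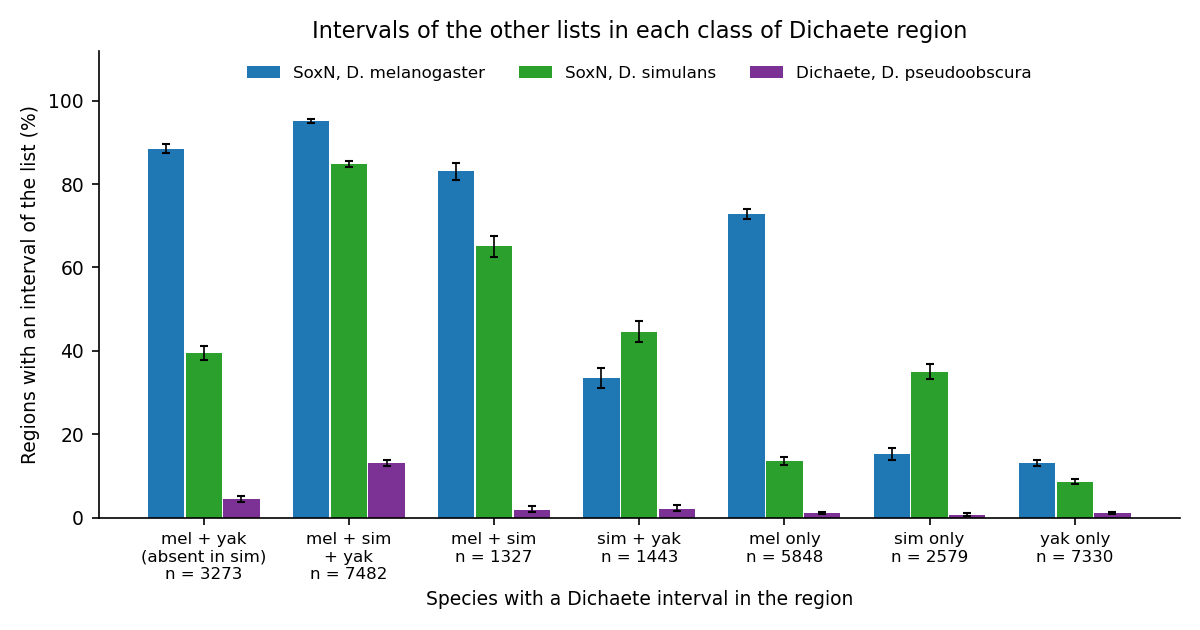
Percentage of merged Dichaete regions, by the species that had a Dichaete interval in them, that overlapped an interval of D. melanogaster SoxN, D. simulans SoxN or D. pseudoobscura Dichaete; bars on the columns are Wilson 95% intervals. In the regions absent only in D. simulans (first group) the shares are 88.5%, 39.4% and 4.37%, and in the three-species regions (second group) 95.2%, 84.9% and 13.1%.

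Read by both SoxN lists together, 1223 of the regions (37.4%) had SoxN in both species, 1675 (51.2%) only in D. melanogaster, 67 (2.05%) only in D. simulans and 308 (9.41%) in neither. Where D. melanogaster had SoxN, D. simulans had it in 42.2% (40.4 to 44.0%) of these regions. The same share was 86.4% in three-species regions, 67.8% in regions absent only in D. yakuba and 52.2% in regions absent only in D. melanogaster. In the larger group of 1675, therefore, both group B Sox proteins were called in D. melanogaster and neither in D. simulans.

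In the 1290 regions with D. simulans SoxN the interval was usually well inside. In 979 (75.9%) at least 1 D. simulans SoxN interval lay wholly within the region, and in 1061 (82.2%) one reached the stretch that the D. melanogaster and D. yakuba Dichaete lists shared. D. simulans SoxN covered a median of 44.7% of these regions, or 528 bp, and at least 50% of the length in 580. Only in 84 (6.51%) did a SoxN interval also run out to meet a D. simulans Dichaete interval beyond the region. The 1387 D. simulans SoxN intervals involved had a median of 2 merged fragments and a maximum of 47. Each of these regions thus held some D. simulans sequence, from 1 bp, that was translated and called for SoxN, while no Dichaete interval was called in the region. Where the SoxN interval did not reach the shared stretch, whether that stretch was translated cannot be read from the lists. For the 1983 regions without D. simulans SoxN, sequence that was not translated and fragments that missed the threshold cannot be told apart.

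The regions with D. simulans SoxN did not lie nearer to D. simulans Dichaete. Their median distance to the nearest D. simulans Dichaete interval was 2370 bp, with quartiles of 1143 and 4863 bp, and that of the regions without it was 2185 bp, with quartiles of 934.5 and 5014 bp. D. simulans SoxN was found in 34.7% of the 216 touching regions, in 42.2% of the 1632 regions over 1000 and up to 5000 bp away and in 26.1% of the 119 regions over 20000 bp away (19.0 to 34.6%). The shares were 34.6% (31.0 to 38.5%) from 1 to 1000 bp and 40.9% over 5000 and up to 20000 bp. The share over 20000 bp was thus the lowest, but its interval overlapped those of the touching regions (28.7 to 41.3%) and of the 1 to 1000 bp class. Several of the farthest regions lay in the stretches without any D. simulans interval, where SoxN is absent by definition.

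D. pseudoobscura, the most distant species, had Dichaete intervals in 143 of the 3273 regions (4.37%, 3.72 to 5.12%), near the 4.59% of all merged regions. The share was 13.1% in three-species regions, 1.88% in regions absent only in D. yakuba, 2.08% in regions absent only in D. melanogaster and 1.13% in regions of D. melanogaster alone. It rose with length, from 1.69% of the regions under 500 bp to 8.73% of those of 4000 bp or more (11 of 126), while in three-species regions it rose from 3.23 to 27.2%. From 500 up to 1000 bp the shares in the 2 classes overlapped within counting error (2.72% against 3.01%), and from 2000 up to 4000 bp they were 7.46 and 12.6%. The regions absent only in D. yakuba or only in D. melanogaster were shorter. Within each length class their intervals overlapped that of the regions absent only in D. simulans. From 1000 up to 2000 bp the share was 4.33% (3.31 to 5.64%) in the regions absent only in D. simulans. It was 2.50% (1.32 to 4.68%) in regions absent only in D. yakuba and 2.82% (1.62 to 4.86%) in regions absent only in D. melanogaster. The D. pseudoobscura list was small, with 2020 intervals over 1.19 Mb of which 57.1% were single fragments, so few overlaps could be found in any class.

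The 143 regions were long, with a median of 1897 bp. D. melanogaster SoxN was present in 134 of them, near the level of all regions absent only in D. simulans of like length (90.8% from 1000 up to 2000 bp and 93.6% from 2000 up to 4000 bp). D. simulans SoxN was present in 84 (58.7%), where those length classes had 41.8 and 49.4%, and both were present in 83. A D. pseudoobscura interval reached the stretch shared by D. melanogaster and D. yakuba Dichaete in 97 (67.8%). At the other end, 300 of the 3273 regions (9.17%) had no interval of D. melanogaster SoxN, D. simulans SoxN or D. pseudoobscura Dichaete, and these were shorter, with a median of 813 bp. In those regions the D. melanogaster and D. yakuba Dichaete calls stood alone. The share of 9.17% was not counted for all merged regions or for the other classes. By itself it cannot be called high or low. Regions in neither SoxN list were counted by class. They made up 9.41% of the regions absent only in D. simulans and 2.18% of those called in every merged species. The shares were 8.14% of the regions absent only in D. yakuba and 39.4% of those absent only in D. melanogaster.

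Single regions are named below on 2L, 3L, 3R, 4 and X, with 1-based dm3 coordinates. Gene, exon or intron positions are not given, except for the stretches of 2L that the study displays for dpp and rdo in dm3 coordinates, since no annotation or genome of this build was used, and no sequence is shown for the same reason. The longest region was 3R:8294229-8329707, of 35479 bp. A single D. yakuba interval of 95 fragments spanned all of it, and it held 6 D. melanogaster Dichaete intervals of 552 to 5583 bp. The D. melanogaster SoxN list had 13 intervals in it, several of which were spaced regularly: 3 successive intervals began 1592 bp apart, and a gap of 1061 bp between neighbouring intervals recurred 4 times. Interval lengths of 531, 553 and 1142 bp also recurred. Whether this region is repeated sequence, and whether reads could be placed uniquely in it, was not tested. No D. simulans SoxN interval fell in it, and the nearest D. simulans Dichaete interval was 7464 bp away.

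The second longest, 3L:16-20265, lay at the left end of the arm. There the D. melanogaster Dichaete and SoxN lists each had 1 interval of 130 fragments over the full 20250 bp, while D. yakuba had 3 intervals of 290 to 888 bp. The nearest D. simulans interval of either factor began 4937 bp further on. The third, 3L:13797880-13817496 (19617 bp), held D. yakuba intervals of 6704 and 12172 bp and 8 D. melanogaster intervals of 117 to 2507 bp, and the nearest D. simulans Dichaete interval was 19375 bp away. In X:15905325-15918222 (12898 bp), a D. yakuba interval of only 5 fragments gave most of the length, and the shared stretch was 876 bp. The fifth, 4:63205-75175 (11971 bp), was the only one of these 5 with D. simulans SoxN, in 2 intervals of 851 and 378 bp. In each of these 5 the widest call of 1 species covered most of the length, in the fifth a D. melanogaster interval of 7125 bp. In the first 4 neither factor was called in D. simulans.

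**Figure D5:**
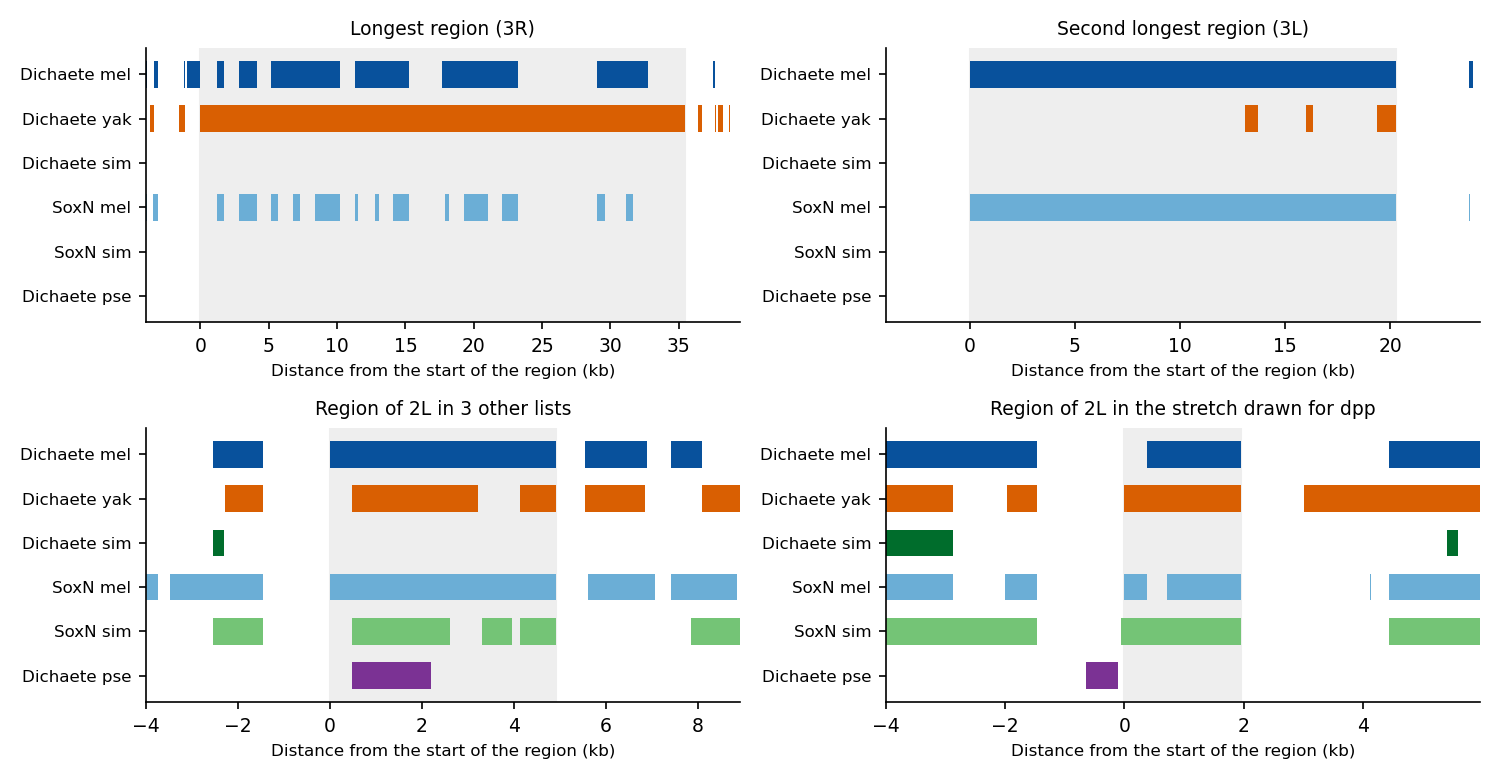
Intervals of the 6 lists in and around 4 named regions, as distance in kb from the start of the region (shaded); mel, sim, yak and pse are the species. In the longest regions (35479 and 20250 bp, top) a wide interval of D. yakuba or D. melanogaster faces no D. simulans interval. In the regions of 2L (4919 and 1959 bp, bottom) D. simulans SoxN overlaps the region and D. simulans Dichaete lies outside it.

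The 5 regions farthest from D. simulans Dichaete were of 369 to 1076 bp, while the 119 regions over 20000 bp away had a median length of 1306 bp. On chromosome 4, 4:23947-24683 (737 bp) and 4:25855-26828 (974 bp) lay 127266 and 125121 bp from the nearest D. simulans Dichaete interval, a single fragment at 4:151950-152397. Their stretches shared by D. melanogaster and D. yakuba were 299 and 50 bp. X:20787465-20788540 (1076 bp) lay 102809 bp away, 3R:8649288-8649748 (461 bp) 98398 bp away and X:20804802-20805170 (369 bp) 95388 bp away. In the last pair the D. melanogaster and D. yakuba intervals had the same boundaries. The nearest D. simulans SoxN interval was also far from all 5, at 37882 to 80007 bp, so no D. simulans interval of either factor was called near them.

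A different picture came from the regions that held intervals of all the other lists. In 2L:3548369-3553287 (4919 bp), D. melanogaster Dichaete and SoxN intervals of 23 and 25 fragments covered the whole region. D. yakuba Dichaete had intervals of 2734 and 777 bp, D. simulans SoxN had 3 intervals covering 72.4% of the region, and D. pseudoobscura Dichaete had 1 of 1723 bp. The D. yakuba, D. simulans SoxN and D. pseudoobscura intervals began at the same GATC boundary, 3548851. The nearest D. simulans Dichaete interval was a single fragment 2310 bp away. By this choice, binding was called here for each factor and species in the 6 lists other than Dichaete in D. simulans.

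Likewise X:18423100-18427860 (4761 bp) had identical D. melanogaster and D. yakuba Dichaete intervals of 15 fragments each. D. melanogaster SoxN covered 94.3% of it and D. simulans SoxN 24.1%, with 2 D. pseudoobscura intervals, and a single-fragment D. simulans Dichaete interval lay 1273 bp away. In 2L:5456437-5460675 (4239 bp) D. melanogaster SoxN covered 99.1% and D. simulans SoxN 32.1%, with D. simulans Dichaete 7974 bp away. In 3R:2934748-2939846 (5099 bp) these shares were 50.5 and 27.4%, with D. simulans Dichaete 1834 bp away. X:6916161-6925266 (9106 bp) differed in that D. simulans SoxN covered more of it than D. melanogaster SoxN did, 79.4 against 9.15%, in a single interval of 16 fragments. By the choice of these 5, D. simulans SoxN overlapped each region and D. simulans Dichaete did not. In 2L:5456437-5460675 a D. simulans SoxN interval ran on beyond the end of the region. D. simulans Dichaete lay at least 1273 bp outside each of the 5.

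At decapentaplegic (dpp), which encodes a BMP ligand that patterns the dorsal-ventral axis of the embryo, 1 of the 11 merged regions in the 40 kb of 2L displayed by the study was absent only in D. simulans. This region, 2L:2455849-2457807 (1959 bp), had a D. yakuba Dichaete interval over its full length (10 fragments) and a D. melanogaster one of 1584 bp (9 fragments). D. simulans SoxN covered 100% of it with an interval of 12 fragments, more than the 82.3% covered by D. melanogaster SoxN, and the nearest D. simulans Dichaete interval, of 9 fragments, was 2870 bp away. In the same 40 kb D. simulans had 12 Dichaete intervals against 10 in D. melanogaster and 13 in D. yakuba, so Dichaete was called in D. simulans around the region but not in it. In the 70 kb of 2L displayed for rdo, none of the 19 merged regions was absent only in D. simulans.

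At the threshold of the rule, the longest regions that a D. simulans Dichaete interval touched were X:10418760-10427999 (9240 bp), X:9018793-9022929 (4137 bp) and 3R:1484188-1488304 (4117 bp), and the touching intervals had 1 to 3 fragments. On the other side, X:17550451-17552916, 2L:9254013-9254742 and 3R:2482242-2483920 counted as three-species regions with a D. simulans overlap of only 5, 8 and 11 bp. Such marginal overlaps were rare: leaving out 2R, 26 of 6091 three-species regions had a D. simulans overlap under 50 bp, and the median overlap was 883 bp.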

How the data were processed

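DamID-seq had been performed in embryos of 4 Drosophila species. As the paper describes, adapters were trimmed with Cutadapt, reads were aligned to the genome of their own species (dm3, droSim1, droYak2, dp3) by bowtie2, and GATC fragments were scored by reads lengthened to 200 bp. The authors called fragments enriched over Dam-only with DESeq2 (1.6.1 in the submitters' processing notes) and merged those within 100 bp. Reads of the other species had been translated to dm3 with LiftOver (minMatch 0.7 for D. simulans and D. yakuba, 0.5 for D. pseudoobscura) before calling. The 12 deposited lists give, for each interval, its position and the number of merged fragments, the latter inferred from the values because there is no header. Read counts are not part of them, so depth per library is unknown and its precision cannot be given. The paper states that libraries were run on an Illumina MiSeq or HiSeq, which differed in read length and in the number of samples pooled. Whether the lists differ by instrument was not tested.

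Overlaps, unions and distances were computed here with Python 3.11.15 and NumPy 2.4.6, Wilson intervals checked against SciPy 1.17.1, and plots with Matplotlib 3.10.9. In simulated lists with planted overlaps the functions returned 15 of 15 planted answers. Intervals on adjacent bases, with no gap and no overlap, count as touching, at distance 0. The 8 dm3 lists were used, with the D. simulans own-genome lists for counts by chromosome only; the remaining 2 were not used. No test was run, since lists pool the replicates and regions are not replicates. 

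The regions and the comparisons were chosen with earlier results of these data known. Single regions named are, off 2R (which enters all counts), the 5 longest, the 5 farthest from D. simulans Dichaete, the 5 longest with intervals of the other 3 lists, the 3 longest runs, those at dpp and rdo, the 3 longest that touch a D. simulans interval, and the 3 three-species regions with the smallest D. simulans overlap. Alternatives were another minimum overlap, the D. melanogaster threshold of 0.01, a length minimum, joined gaps, D. melanogaster intervals as the unit, and chromosomes left out.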

Additional observations from a re-analysis of the deposited data

How the results depend on the processing

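Of 72 values recomputed under 9 alternatives for 8 results, 36 stayed within the error of the reported value (its Wilson interval, an order-statistic interval for medians, 1.5 times for counts) and 36 left it. The number of regions ranged from 2393 to 3774 under 8 of the alternatives and was 5033 when D. melanogaster intervals were counted in place of regions, because 1507 of them lay in regions where another interval met D. simulans. With presence in any list defined as covering at least 50% of a region, 63.9% of the D. melanogaster and D. yakuba regions lacked D. simulans, the SoxN shares were 79.0% (D. melanogaster) and 34.7% (D. simulans), the D. pseudoobscura share 0.768%, the median length 1746 bp, the median distance 0 bp and the share within 1000 bp 66.9%. A D. simulans interval covering less than 50% of a region may then lie inside it. With the D. melanogaster lists at 0.01 the share without D. simulans was 27.1% and the SoxN shares were 81.9 and 44.5%. With intervals of at least 500 bp these were 38.0%, 84.8% for D. melanogaster SoxN and 3.72% for D. pseudoobscura, with a median length of 1724 bp, a median distance of 3847 bp and 14.8% within 1000 bp. Joining gaps of up to 100 bp gave SoxN shares of 87.1 and 36.8%, a median distance of 2626 bp and 17.0% within 1000 bp. Joining gaps of up to 1000 bp gave 25.9% without D. simulans, 87.0% with D. melanogaster SoxN, a median length of 1637 bp, a median distance of 3872 bp and, by construction, 0% within 1000 bp. Counting D. melanogaster intervals gave 37.6%, SoxN shares of 86.0 and 33.5%, 3.18% with D. pseudoobscura, a median length of 570 bp, a median distance of 1764 bp and 33.1% within 1000 bp. Leaving out chromosome 4 and the 2 Mb next to each centromere, an alternative chosen after seeing the data, gave 29.3% without D. simulans, a median length of 1164 bp and a median distance of 2145 bp.

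No paired analysis was possible because the deposited lists combine the replicates of a condition, and no replicate was left out for the same reason. Absence from a list means only that no interval was called. Sequence that was not translated, few reads and missing enrichment cannot be told apart in these lists, and depth per library is unknown. Values by chromosome arm show spread within the genome, not between samples.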
